A study of Mus musculus with 6 samples.

Results

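Glycolysis and hypoxia-response genes were followed as a set of 34 named genes of 32028 genes with deposited counts, chosen by gene symbol in pathway order. The set runs from glucose uptake through the glycolytic enzymes to lactate export, and on to the hypoxia-inducible factor (HIF) subunits, the enzymes that destabilise them and 5 genes known as HIF targets. The samples were 6 RNA-seq libraries from clonal mouse embryonic fibroblast lines. There were 3 knockout clones, raised from Macf1flox/flox mice and carrying recombined copies of both Macf1 alleles (Macf1-/-), and 3 het clones, raised from Macf1flox/+ mice and retaining 1 intact allele (Macf1-/+). All 6 lines had been immortalized with the SV40 large T antigen and exposed to AAV8-CMV-Cre, a virus that expresses Cre from a broadly active promoter, so the het clones had also received the antigen and Cre and are not wild type. Each line grew from a single cell, and RNA was taken from confluent cultures. No oxygen level or metabolite was given in the sources used here. How many embryos gave the clones is not given either, so p-values measure the spread between clones only.

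Glycolysis splits glucose into pyruvate, and lactate dehydrogenase turns pyruvate into lactate, which monocarboxylate transporters carry out of the cell. Several steps have alternative isozymes encoded by separate genes. When oxygen is low, HIF-alpha subunits escape prolyl hydroxylation, pair with the partner Arnt and raise transcription of many of these genes, including that of the prolyl hydroxylase Egln3.

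Estimated counts totalled 16581833 to 18209673 per library in the knockout clones and 15661342 to 17614982 in the het clones. Values are CPM, estimated counts scaled to a common library size with TMM factors, and a gene passed where its adjusted p was under 0.05 in edgeR's quasi-likelihood test, adjusted over 12745 genes. Macf1, the targeted gene, stood at 309, 363 and 322 CPM in knockout clones 1, 2 and 3, against 693, 696 and 579 CPM in het clones 1, 2 and 3 (log2 fold change -0.99, SE 0.13, adjusted p = 0.00307, edgeR), a check that covers the whole gene and not the deleted part. Of 11 fibroblast markers, the summed level was 6010 to 8630 CPM in knockout clones and 9700 to 13200 CPM in het clones. Vim and Fn1 were abundant in all clones, Lum was at 0 in all 6, Thy1 was at or near 0, and Col1a1 measured 2.69, 5.72 and 13.8 CPM in knockout clones against 1169, 1019 and 1498 CPM in het clones. The summed level of 6 epithelial markers was 0.431 to 1.03 CPM in knockout clones and 16.1 to 56.7 CPM in het clones. In the het clones nearly all of it was Krt19. Endothelial, leukocyte and skeletal muscle markers summed to under 6 CPM in every clone, and 4 neural markers to 115 to 125 CPM in knockout and 103 to 234 CPM in het clones. Most of that sum was Nes, which did not pass (adjusted p = 0.736, edgeR), whereas the other 3 fell. Sox2 averaged 0.559 ± 0.328 CPM in knockout and 8.08 ± 2.42 CPM in het clones (SD, n = 3 each, adjusted p = 0.00333, edgeR). Tubb3 averaged 0.419 ± 0.355 CPM in knockout and 7.9 ± 4.68 CPM in het clones (adjusted p = 0.00633, edgeR), and Map2 16.6 ± 2.44 CPM in knockout and 40.6 ± 18 CPM in het clones (adjusted p = 0.0316, edgeR). The part of these marker differences in the results below was not tested, and in bulk RNA fewer cells of a type and less RNA per cell cannot be told apart.

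All 34 genes had enough counts to be tested, and 12 of them (35.3%) passed, 4 higher and 8 lower in the knockout clones. Over all genes tested 28.1% passed, 13.9% higher and 14.2% lower. The median log2 fold change was -0.06 over the 34 genes and -0.001 over all tested genes. The genes that rose were Hk2, Pfkp, Aldoa and Pgam1, which encode enzymes of the glycolytic chain. The genes that fell were Slc2a3, Pfkm, Aldoc, Eno2, Ldhb, Slc16a3, Egln3 and Ndrg1. They comprise 4 isozyme genes of glycolysis and lactate formation, 2 transporter genes, a prolyl hydroxylase gene and a stress-response gene. The knockout and het clones did not overlap in 14 of the 34 genes, the 12 that passed together with Gpi1 and Bnip3, against 47.5% of all tested genes. The count fell along with the share over all genes when some clones were left out. Without knockout clone 1, knockout clone 2 and het clone 3, 5, 5 and 6 genes passed, where 14.4%, 11.8% and 18.7% of all genes passed. Without knockout clone 3, 13 passed, 9 of them among the 12, where 27.5% of all genes passed. Hk2, Pfkm, Ldhb, Egln3 and Ndrg1 passed under all 16 alternatives run, and none of the 12 changed direction in any of them.

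**Figure D1:**
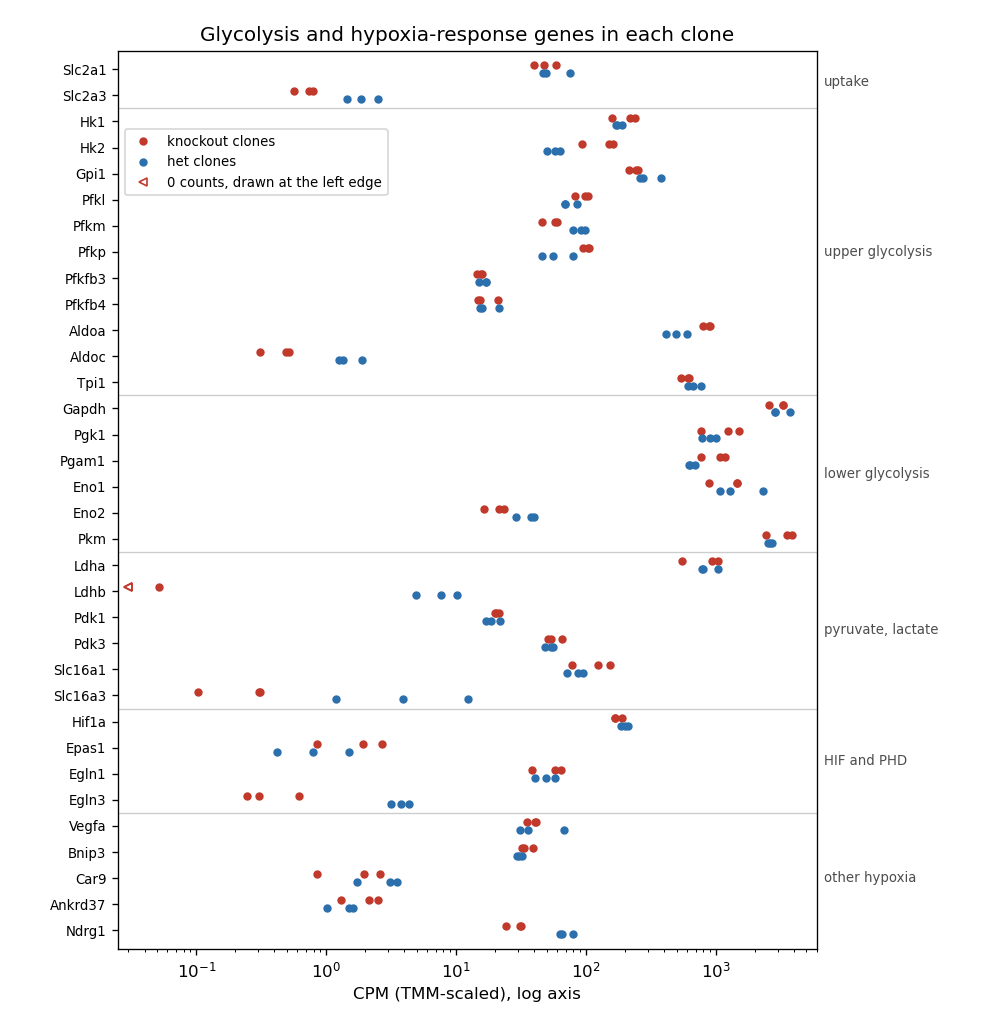
Level of each of the 34 genes in every clone, in CPM on a log axis, with knockout clones in the upper row of points of each gene and het clones in the lower row; an open triangle marks 0 counts. The 2 rows of points stand apart for Ldhb, Egln3, Slc16a3 and Ndrg1, with het higher, and for Hk2 and Aldoa, with knockout higher, and overlap for Gapdh, Ldha and Slc2a1.

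**Figure D2:**
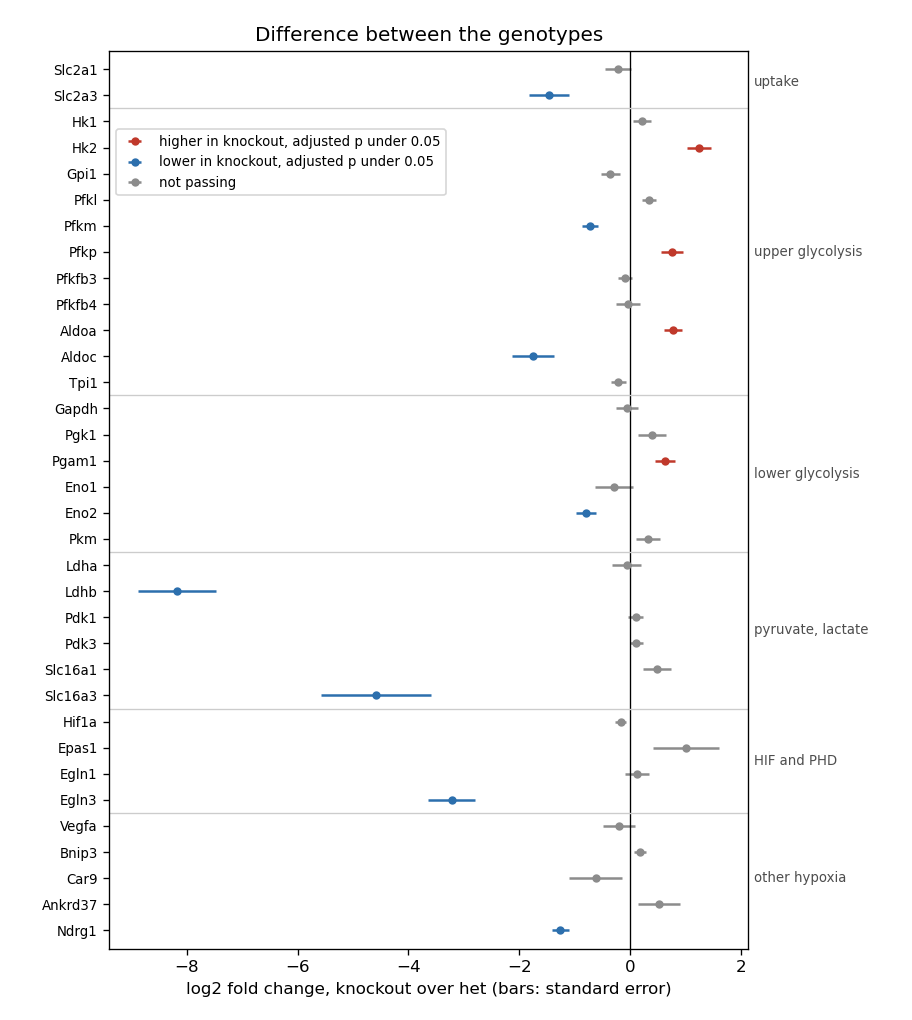
Log2 fold change of knockout over het clones for each gene, with its standard error, in pathway order; red points passed as higher, blue points as lower and grey points did not pass. The 12 passing genes lie between -8.17 (Ldhb) and 1.24 (Hk2), and 8 of them are to the left of 0.

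Of the 2 glucose transporter genes, Slc2a3 fell and Slc2a1 did not pass. Slc2a1, which encodes the widespread transporter GLUT1, measured 47.9, 59.4 and 40.1 CPM in knockout clones and 75.2, 49.1 and 46.9 CPM in het clones, with overlapping groups (log2 fold change -0.22, SE 0.23, adjusted p = 0.509, edgeR), and the sign turned to 0.03 without het clone 1. Slc2a3, which encodes the high-affinity transporter GLUT3 known from neurons, was close to the detection limit. It fell to 0.794, 0.738 and 0.569 CPM in knockout clones, against 1.44, 1.86 and 2.51 CPM in het clones, on 36 and 97 counts in all (log2 fold change -1.46, SE 0.36, adjusted p = 0.0244, edgeR). No knockout clone reached the lowest het clone. The Slc2a3 transcript with enough counts to be tested, Slc2a3-204, is annotated as a retained intron. It averaged 0.669 CPM in knockout and 1.65 CPM in het clones and did not pass (adjusted p = 0.144 in edgeR over transcripts). Whether the protein-coding message of Slc2a3 fell was therefore not resolved. The call of Slc2a3 was lost without knockout clone 1, 2 or 3 (adjusted p = 0.0726, 0.0967 and 0.0641, edgeR) and without het clone 2 or 3 (0.0687 and 0.083).

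The hexokinases, which trap glucose by phosphorylation, included the largest gain of the set. Hk2, the inducible hexokinase of muscle, embryos and tumours (chromosome 6, 82725025 to 82774454, minus strand, GRCm38), measured 152, 161 and 93.6 CPM in knockout clones, against 63.5, 50.1 and 58.3 CPM in het clones. Its mean was 135.5 ± 36.6 CPM in knockout clones and 57.3 ± 6.73 CPM in het clones (SD, n = 3 each), a 2.36-fold difference (log2 fold change 1.24, SE 0.22, adjusted p = 0.00783, edgeR). The lowest knockout clone, number 3, lay above every het clone. Hk1, the constitutive hexokinase, averaged 206 ± 41 CPM in knockout and 178 ± 9.41 CPM in het clones and did not pass (log2 fold change 0.21, adjusted p = 0.344, edgeR), though it did without knockout clone 3 (0.36, adjusted p = 0.0402). On the authors' FPKM, which are scaled for transcript length and allow levels of separate genes to be compared, Hk2 made up 31.5%, 30.9% and 27.7% of the Hk1 and Hk2 sum in knockout clones and 19.2%, 15.7% and 16.8% in het clones. Hk1 was thus the more abundant of the pair per length in every clone, and the Hk2 shares of the groups did not overlap.

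Gpi1, which converts glucose 6-phosphate to fructose 6-phosphate, averaged 237 ± 20.5 CPM in knockout and 305 ± 65.8 CPM in het clones (log2 fold change -0.36, adjusted p = 0.145, edgeR). The committed step is run by phosphofructokinase, a tetramer assembled from liver (Pfkl), muscle (Pfkm) and platelet (Pfkp) subunits, and here the subunits moved in opposite directions. Pfkm (chromosome 15, 98092589 to 98132451) fell to 45.8, 58.0 and 59.6 CPM in knockout clones, against 92.2, 97.7 and 80.1 CPM in het clones (log2 fold change -0.72, SE 0.14, adjusted p = 0.00998, edgeR). Pfkp (chromosome 13, 6579768 to 6648777) rose to 94.8, 105.6 and 104.5 CPM in knockout clones, against 79.5, 46.3 and 55.9 CPM in het clones (log2 fold change 0.75, SE 0.20, adjusted p = 0.03, edgeR). Neither gene had overlapping groups. Pfkp did not pass without knockout clone 1, 2 or 3 (adjusted p = 0.0724, 0.102 and 0.0729, edgeR) or without het clone 2 or 3 (0.0731 and 0.0939), whereas Pfkm passed in each case. Pfkl averaged 94.9 ± 10.6 CPM in knockout and 74.7 ± 9.54 CPM in het clones (log2 fold change 0.34, adjusted p = 0.0928, edgeR), and passed without het clone 1 (0.45, adjusted p = 0.0393).

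The make-up of the phosphofructokinase message differed accordingly. On FPKM, Pfkm held 21.8%, 25.2% and 24.2% of the summed message in knockout clones and 40.7%, 50.4% and 44.7% in het clones. Pfkp held 39.1%, 40.6% and 43.1% in knockout clones and 28.8%, 20.4% and 24.6% in het clones. Pfkm was the most abundant subunit message in all 3 het clones and the least abundant in all 3 knockout clones. Pfkfb3 and Pfkfb4 make and break fructose 2,6-bisphosphate, the activator of phosphofructokinase. They stood at 15.4 ± 0.742 and 17 ± 3.43 CPM in knockout clones and at 16.4 ± 1.14 and 17.5 ± 3.44 CPM in het clones, and neither passed (adjusted p = 0.655 and 0.89, edgeR). Pfkfb4 changed sign in 5 of the alternatives.

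**Figure D3:**
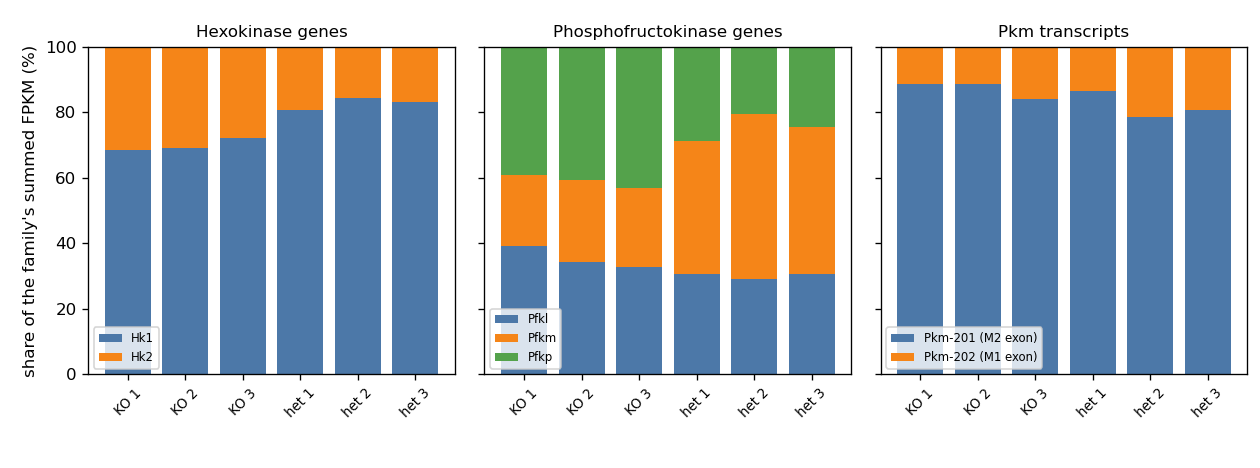
Share of each isozyme gene, or of each Pkm transcript, in the summed FPKM of its family, in percent, for knockout (KO) clones 1 to 3 and het clones 1 to 3. Hk2 takes a larger share and Pfkm a smaller share in each KO clone than in any het clone, whereas the Pkm transcript shares overlap.

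Aldolase cleaves fructose 1,6-bisphosphate. Aldoa, the main aldolase gene outside liver (chromosome 7, 126795234 to 126800751, minus strand), rose to 887, 905 and 795 CPM in knockout clones, against 602, 415 and 492 CPM in het clones. The means were 862 ± 59 CPM in knockout and 503 ± 93.7 CPM in het clones (log2 fold change 0.78, SE 0.16, adjusted p = 0.015, edgeR). Aldoc, the aldolase of brain, fell to 0.489, 0.308 and 0.517 CPM in knockout clones, against 1.26, 1.35 and 1.88 CPM in het clones (23 and 75 counts, log2 fold change -1.75, SE 0.38, adjusted p = 0.0161, edgeR). The groups were separate for both genes, and the gene that fell was the one near the detection limit. Aldoa missed the threshold without knockout clone 1 or 2 or het clone 2 or 3 (adjusted p = 0.0535, 0.0686, 0.0527 and 0.0543, edgeR), and Aldoc without knockout clone 1 or 2 or het clone 3 (0.0594, 0.0822 and 0.0566). Tpi1, which interconverts the 2 triose phosphates, averaged 591 ± 46.1 CPM in knockout and 683 ± 82.3 CPM in het clones (log2 fold change -0.21, adjusted p = 0.29, edgeR).

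In lower glycolysis, Pgam1 rose, Eno2 fell and Gapdh, Pgk1, Eno1 and Pkm did not pass. Pgam1, the phosphoglycerate mutase of most tissues (chromosome 19, 41911923 to 41918660), measured 1186, 1077 and 770.0 CPM in knockout clones, against 696, 620 and 638 CPM in het clones (log2 fold change 0.63, SE 0.18, adjusted p = 0.041, edgeR). Its neighbours shared the shift: the median log2 fold change of the 41 tested genes around it on the chromosome was 0.58, and with that median taken out Pgam1 was at 0.06 (adjusted p = 0.876). The call was also lost without any clone other than knockout clone 3 (adjusted p = 0.123 and 0.143 without knockout clones 1 and 2, and 0.0605, 0.135 and 0.116 without het clones 1, 2 and 3, edgeR). Eno2, the neuronal enolase (chromosome 6, 124760053 to 124769673, minus strand), fell to 16.5, 21.4 and 23.6 CPM in knockout clones, against 37.8, 29.2 and 39.9 CPM in het clones (log2 fold change -0.8, SE 0.18, adjusted p = 0.0191, edgeR). The median of its 41 neighbours was -0.28, and with it taken out the log2 fold change was -0.51 (adjusted p = 0.0874). Eno2, Slc2a3 and Aldoc, all known from neurons or brain, were lower in the same clones as the neural markers Sox2, Tubb3 and Map2, whose part in these results was not tested. Eno2 missed the threshold without knockout clone 1 or 2 or het clone 3 (adjusted p = 0.0554, 0.0665 and 0.0629, edgeR).

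Gapdh, which oxidises glyceraldehyde 3-phosphate and is widely used as a loading control, stood at 3278, 3277 and 2557 CPM in knockout clones and at 3730, 2873 and 2855 CPM in het clones (log2 fold change -0.05, SE 0.20, adjusted p = 0.861, edgeR). The groups overlapped, and the sign turned without knockout clone 3 (0.05) or het clone 1 (0.08) and with the local median of -0.3 taken out (0.24). Pgk1, the ATP-forming phosphoglycerate kinase on the X chromosome, averaged 1177 ± 369.7 CPM in knockout and 900.2 ± 108.6 CPM in het clones (log2 fold change 0.39, adjusted p = 0.289, edgeR). Knockout clone 3, at 774 CPM, lay under every het clone, and without it Pgk1 passed (0.61, adjusted p = 0.0341).

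Eno1, the main enolase gene, could not be measured apart from a near-identical copy. Eno1 itself averaged 1273 ± 328.8 CPM in knockout and 1558 ± 662 CPM in het clones (log2 fold change -0.29, SE 0.34, adjusted p = 0.555, edgeR). Eno1b, a retrogene whose transcript matched an Eno1 transcript at 99.5% of aligned bases, was assigned 1304, 1192 and 736 CPM in knockout clones and 0.359, 322 and 298 CPM in het clones (log2 fold change 2.38, SE 1.59, adjusted p = 0.313, edgeR). The counts of Eno1 copies came to between 81.9% and 88.8% of those of Eno1 in knockout clones and between 0.0878% and 27.7% in het clones. With the copies added, Eno1 measured 2777, 2649 and 1631 CPM in knockout clones and 2315, 1603 and 1378 CPM in het clones, and the sign turned (log2 fold change 0.41, SE 0.28, adjusted p = 0.31, edgeR). The direction of Eno1 was therefore not determined, and the addition was chosen after the data had been seen. The transcript Eno1-205 took 201.5, 208 and 126 CPM in knockout clones against 10.3, 29.1 and 27.8 CPM in het clones (log2 fold change 3, adjusted p = 0.0165 in edgeR over transcripts), but missed the threshold without knockout clone 1 or 2 or het clone 2 or 3 (adjusted p = 0.0689, 0.0721, 0.0588 and 0.0554). For the other 33 genes, near-identical copies held at most 9.79% of the parent's counts (Gapdh, in knockout clone 1), wherever the parent had counts. Ldhb had 0 counts in knockout clones 1 and 2, where its copy Gm5514 had 1 and 0.

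**Figure D4:**
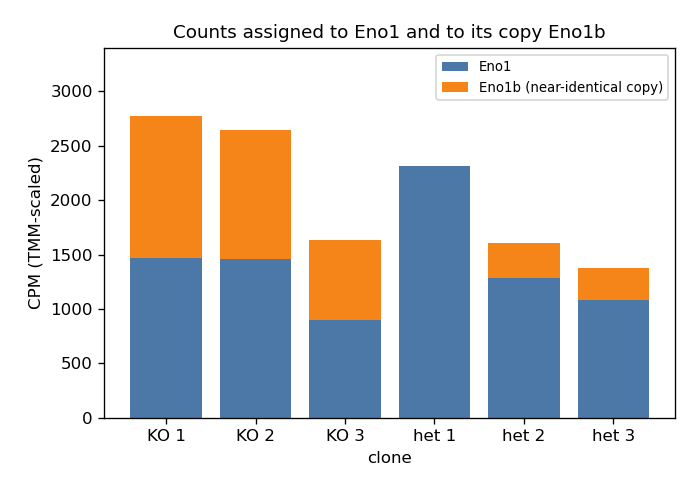
Estimated counts assigned to Eno1 and, stacked above, to its near-identical copy Eno1b, in CPM, for knockout (KO) clones 1 to 3 and het clones 1 to 3. The copy holds 736 to 1304 CPM in KO clones, 298 and 322 CPM in het clones 3 and 2, and almost none in het clone 1.

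Pkm, pyruvate kinase, measured 3856, 3573 and 2429 CPM in knockout clones and 2719, 2636 and 2546 CPM in het clones (log2 fold change 0.32, SE 0.21, adjusted p = 0.299, edgeR). Knockout clone 3 was the lowest of the 6, and without it Pkm passed (0.49, adjusted p = 0.0345). The gene makes 2 enzymes by including either of 2 mutually exclusive exons: the M1 form of adult muscle and brain, and the M2 form of embryonic and proliferating cells. Both exons are 167 bases long and lie on chromosome 9 (GRCm38, plus strand), the M1 exon at chr9:59675029-59675195 and the M2 exon at chr9:59675568-59675734. They are shown because they are the inner exons that differ between the 2 messages. The annotated ends of the 2 transcripts differ as well, so their estimated shares may rest partly on those ends. Capitals mark the 64 positions at which the 2 exons differ (61.7% identical).
Pkm-201 (M2 exon): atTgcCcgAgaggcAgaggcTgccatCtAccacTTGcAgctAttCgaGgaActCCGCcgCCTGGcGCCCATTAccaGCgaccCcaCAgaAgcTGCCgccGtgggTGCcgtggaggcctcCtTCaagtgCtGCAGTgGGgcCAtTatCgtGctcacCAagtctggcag
Pkm-202 (M1 exon): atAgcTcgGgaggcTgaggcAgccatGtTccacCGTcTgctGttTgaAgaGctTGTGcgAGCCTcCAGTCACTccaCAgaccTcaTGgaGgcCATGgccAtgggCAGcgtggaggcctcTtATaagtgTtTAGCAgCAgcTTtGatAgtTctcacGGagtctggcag
Pkm-201 made up 88.5%, 88.5% and 84.0% of the summed FPKM of the 2 transcripts in knockout clones and 86.4%, 78.6% and 80.7% in het clones. The M2-exon message was the larger one in all 6 clones, and the groups overlapped. Neither transcript passed: Pkm-201 had a log2 fold change of 0.49 (adjusted p = 0.224) and Pkm-202 of -0.12 (adjusted p = 0.718) in edgeR over transcripts, and Pkm-201 passed without knockout clone 3 (0.68, adjusted p = 0.04).

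At the pyruvate branch point, the main lactate dehydrogenase gene did not pass and the minor one was close to silent in the knockout clones. Ldha, whose subunit favours lactate formation, measured 1034, 945 and 547 CPM in knockout clones and 1040, 791 and 796 CPM in het clones (log2 fold change -0.06, SE 0.26, adjusted p = 0.886, edgeR). The groups overlapped, and the sign turned without knockout clone 3 (0.17), without het clone 1 (0.08) and with the local median of -0.25 taken out (0.19). Ldhb, whose subunit predominates in heart (chromosome 6, 142490249 to 142507957, minus strand), had 0, 0 and 0.0517 CPM in knockout clones, against 4.91, 10.2 and 7.65 CPM in het clones. That was 1 count in all knockout clones and 386 in all het clones, a 398-fold lower pooled level with a 95% interval of 71 to 15700 that covers counting error only (adjusted p = 0.000751, edgeR). Even in the het clones Ldhb was a small part of the lactate dehydrogenase message, at 0.541%, 1.35% and 1.04% of the summed FPKM, and it was listed at 0 in each knockout clone. The neighbours of Ldhb had a median log2 fold change of -0.44, against a fitted -8.17 for the gene.

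The monocarboxylate transporters, which export lactate with a proton, did not move together. Slc16a3 (MCT4, the exporter of highly glycolytic cells; chromosome 11, 120948480 to 120960868) fell to 0.305, 0.308 and 0.103 CPM in knockout clones, against 1.2, 3.88 and 12.4 CPM in het clones. The het clones differed among themselves more than for any other passing gene, and every one lay above every knockout clone (12 counts against 287, log2 fold change -4.59, SE 0.99, adjusted p = 0.0168, edgeR). The call was lost without knockout clone 1, 2 or 3 (adjusted p = 0.0655, 0.0675 and 0.0553, edgeR) and with limma-voom (0.0669). Slc16a1 (MCT1, the widespread transporter) averaged 118 ± 38 CPM in knockout and 84.7 ± 12.2 CPM in het clones (log2 fold change 0.48, adjusted p = 0.191, edgeR), and passed without knockout clone 3 (0.7, adjusted p = 0.0248). Pdk1 and Pdk3, kinases that switch off pyruvate dehydrogenase, stood at 20.6 ± 0.634 and 56.7 ± 7.53 CPM in knockout clones and at 19.2 ± 2.41 and 52.5 ± 3.79 CPM in het clones, with adjusted p of 0.617 and 0.541 (edgeR).

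Among the HIF subunits and prolyl hydroxylases, Egln3 alone passed. Hif1a, the oxygen-regulated subunit HIF-1 alpha, measured 169, 168 and 191 CPM in knockout clones and 185.5, 199 and 209.6 CPM in het clones (log2 fold change -0.17, SE 0.10, adjusted p = 0.237, edgeR). Its 41 neighbours had a median of 0.42, and relative to them Hif1a passed as lower (-0.59, adjusted p = 0.00818). HIF-1 alpha is controlled mainly at the protein level, which RNA does not report. Epas1 (HIF-2 alpha) was low, at 1.82 ± 0.92 CPM in knockout and 0.904 ± 0.552 CPM in het clones (adjusted p = 0.241, edgeR). Egln1 (PHD2, the main oxygen-sensing hydroxylase) averaged 53.4 ± 13.3 CPM in knockout and 49.2 ± 8.74 CPM in het clones (adjusted p = 0.715, edgeR).

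Egln3 (PHD3, an inducible hydroxylase; chromosome 12, 54178981 to 54203860, minus strand) measured 0.305, 0.246 and 0.62 CPM in knockout clones, against 3.17, 4.33 and 3.76 CPM in het clones. All 3 knockout clones were under every het clone, on 21 counts against 190, a 9.32-fold lower fitted level (log2 fold change -3.22, SE 0.42, adjusted p = 0.00307, edgeR). Its neighbours were higher on balance in the knockout clones, with a median of 0.46, and with that taken out the log2 fold change was -3.68.

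Of the 5 other hypoxia-response genes, Ndrg1 passed and Vegfa, Bnip3, Car9 and Ankrd37 did not. Ndrg1, a gene raised by hypoxia, iron loss and differentiation (chromosome 15, 66929318 to 66969640, minus strand), fell to 31.0, 31.9 and 24.2 CPM in knockout clones, against 79.2, 63.5 and 65.1 CPM in het clones. The means were 29.0 ± 4.21 CPM in knockout and 69.3 ± 8.62 CPM in het clones, a 2.39-fold difference (log2 fold change -1.26, SE 0.15, adjusted p = 0.00223, edgeR). Vegfa, the angiogenic growth factor, measured 41.3, 35.3 and 40.3 CPM in knockout clones and 67.5, 31.1 and 36.0 CPM in het clones. Het clone 1 stood apart, and without it the log2 fold change of Vegfa turned to 0.21, against -0.2 with all clones (adjusted p = 0.635, edgeR). Bnip3, a mitophagy receptor, measured 39.1, 33.3 and 32.3 CPM in knockout clones and 30.6, 29.4 and 32.2 CPM in het clones, a small separation that did not pass (log2 fold change 0.18, adjusted p = 0.259, edgeR). Car9, a cell-surface carbonic anhydrase used as a hypoxia marker, was low in all clones, at 1.8 ± 0.877 CPM in knockout and 2.78 ± 0.928 CPM in het clones (adjusted p = 0.37, edgeR). Ankrd37, a small ankyrin-repeat protein gene, averaged 1.98 ± 0.623 CPM in knockout and 1.38 ± 0.321 CPM in het clones (adjusted p = 0.334, edgeR).

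The abundant enzymes also varied between clones of the same genotype. In all 8 genes that averaged at least 500 CPM (Aldoa, Tpi1, Gapdh, Pgk1, Pgam1, Eno1, Pkm and Ldha), knockout clone 3 was the lowest knockout clone, at 55.2% (Ldha) to 88.7% (Aldoa) of the mean of the other two. Het clone 1 was the highest het clone in all 8. The same order was common among abundant genes in general: of 250 tested genes at 500 CPM or more, 79.2% were lowest in knockout clone 3, 59.6% highest in het clone 1 and 53.6% both. Summed over the 34 genes, the message was 15370, 14660 and 10620 CPM in knockout clones and 14490, 11530 and 11250 CPM in het clones, so the groups overlapped.

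**Figure D5:**
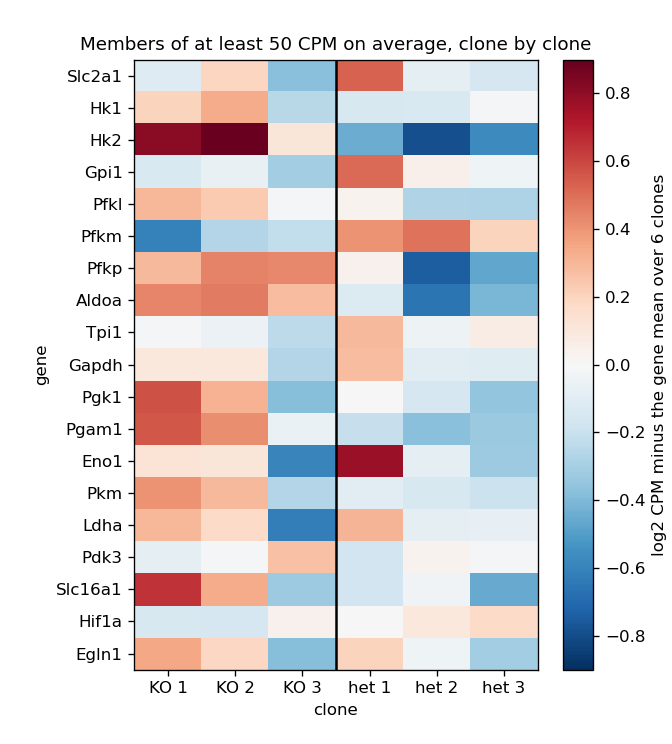
Log2 CPM minus the gene's mean over the 6 clones, for the 19 genes that averaged at least 50 CPM, with knockout (KO) clones left of the black line and het clones right of it; red is higher and blue lower. Hk2 and Aldoa are higher in each KO clone than in any het clone and Pfkm is lower, whereas Gapdh, Pgk1, Pkm and Ldha are pale or blue in KO clone 3 and red in KO clones 1 and 2.

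Promoter windows were read for what the genes share in sequence. RefSeq windows (GRCm38.p6, 250 bases before to 50 after a start) were found for 31 of the 34 genes, and were searched on both strands for the HIF core motif ACGTG, whose reverse complement is CACGT. Where the 2 overlap, in the palindrome CACGTG, both were counted. The motif was present for 22 of 31 genes (71.0%), against 29.2% of the 9667 tested genes with a window. It was in 25 of 45 windows of these genes and in 25.1% of the windows of tested genes. By result it was present for 3 of 4 genes that rose, 4 of 6 that fell and 15 of 21 that did not pass. With GCGTG (reverse complement CACGC) also allowed, 90.3% of the genes had a match, against 67.9% of tested genes. These matches describe the windows and are not measured binding sites.

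Windows are shown for a gene that rose, a gene that fell and the near-silent gene. For the abundant gene Ldha the window with 7 matches is shown. The windows run 5′ to 3′ on the strand of the gene, with matches to either motif in capitals. They lie at chr6:82774405-82774704 (Hk2, minus strand), chr12:54203825-54204124 (Egln3, minus strand), chr6:142507908-142508207 (Ldhb, minus strand) and chr7:46845554-46845853 (Ldha, plus strand).
Hk2: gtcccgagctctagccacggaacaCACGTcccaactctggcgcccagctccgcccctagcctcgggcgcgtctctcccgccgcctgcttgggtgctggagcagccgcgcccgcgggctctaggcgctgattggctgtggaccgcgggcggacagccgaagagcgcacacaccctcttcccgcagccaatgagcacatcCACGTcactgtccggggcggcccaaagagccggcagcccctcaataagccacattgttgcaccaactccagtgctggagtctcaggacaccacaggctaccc
Egln3: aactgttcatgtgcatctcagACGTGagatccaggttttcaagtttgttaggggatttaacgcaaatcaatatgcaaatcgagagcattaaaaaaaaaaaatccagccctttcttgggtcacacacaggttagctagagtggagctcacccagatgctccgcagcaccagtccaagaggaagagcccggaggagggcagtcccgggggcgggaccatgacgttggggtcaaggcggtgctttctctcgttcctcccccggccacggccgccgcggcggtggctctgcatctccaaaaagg
Ldhb: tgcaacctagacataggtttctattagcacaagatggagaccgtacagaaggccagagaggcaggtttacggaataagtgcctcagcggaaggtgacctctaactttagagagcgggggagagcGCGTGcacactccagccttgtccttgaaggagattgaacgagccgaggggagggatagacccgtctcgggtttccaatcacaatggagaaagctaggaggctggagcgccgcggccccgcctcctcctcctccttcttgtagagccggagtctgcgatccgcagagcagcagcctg
Ldha: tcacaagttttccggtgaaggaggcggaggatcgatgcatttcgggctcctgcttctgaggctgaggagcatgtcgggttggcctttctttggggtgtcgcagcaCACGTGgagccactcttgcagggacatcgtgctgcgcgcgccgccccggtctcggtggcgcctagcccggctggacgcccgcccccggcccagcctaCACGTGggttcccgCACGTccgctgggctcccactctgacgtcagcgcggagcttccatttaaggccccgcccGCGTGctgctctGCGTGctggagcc
Hk2 had 2 matches and Egln3 had 1, all of them to ACGTG, and moved in opposite directions. Ldhb had 1 match, to GCGTG, and the Ldha window shown had 5 matches to ACGTG and 2 to GCGTG. Another Ldha window, at chr7:46846832-46847131, had 2 matches, and 0 of them to ACGTG. Matches thus occurred in genes that rose, fell and did not pass.

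At the level of single transcripts, 102 transcripts of the 34 genes were tested and 11 passed, 4 higher and 7 lower in the knockout clones, against 7.92% of 34761 transcripts tested. The main transcripts repeated the gene results for Hk2-201, Pfkp-201, Pfkm-201, Ldhb-201, Egln3-201 and Ndrg1-201. Aldoa-201 and Pgam1-201, the main transcripts of Aldoa and Pgam1, missed the threshold (log2 fold change 0.91 and 0.71, adjusted p = 0.0508 and 0.0676 in edgeR over transcripts). No tested transcript of Slc2a3, Aldoc, Eno2 or Slc16a3 passed. Among the lesser transcripts, Aldoa-210 rose to 49.2, 36.7 and 58.6 CPM in knockout clones against 22.3, 16.4 and 17.3 CPM in het clones (log2 fold change 1.37, adjusted p = 0.0193 in edgeR over transcripts). Gapdh-208, an RNA with no annotated protein, fell to 27.7, 48.5 and 25.5 CPM in knockout clones against 134.8, 148.5 and 64.8 CPM in het clones (adjusted p = 0.0466), while the gene as a whole did not pass. Gpi1-206 and Gpi1-207, annotated as targets of nonsense-mediated decay, fell as well (log2 fold change -0.91 and -0.81, adjusted p = 0.0351 and 0.0348). The authors' deposited table lists 77 transcripts of 29 of these genes, with 17 passing, 7 higher and 10 lower, against 14.0% of all its transcripts. In the authors' deposited table Hk2-201 has a log2 fold change of 1.27 (adjusted p = 2.86e-05), Pfkm-201 of -0.78 (0.00865), Egln3-201 of -3.18 (6.63e-08) and Ndrg1-201 of -1.21 (1.74e-05). Of the 11 passing transcripts, 1, 2, 2 and 3 passed without knockout clone 1, knockout clone 2, het clone 2 and het clone 3. The share over all transcripts in those fits is not given here. Whether the drop was particular to these transcripts was therefore not tested. Transcripts of a gene share exons, so their separate levels are estimates.

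Genes around the pathway were counted in the same way from further lists. Beside each count stands the share over all tested genes, 28.1%, with 13.9% higher and 14.2% lower. With single clones left out, that share ran from 11.8% to 29.1%. Of 11 genes for the entry of pyruvate into mitochondria, 2 rose and 2 fell (median log2 fold change -0.11). Pdhb, a subunit of pyruvate dehydrogenase, averaged 60.7 ± 4.87 CPM in knockout and 103 ± 2.56 CPM in het clones (log2 fold change -0.76, adjusted p = 0.00262, edgeR). Pdk4, a fasting-induced pyruvate dehydrogenase kinase, rose to 10.4, 6.58 and 5.79 CPM in knockout clones, against 1.08, 3.04 and 1.07 CPM in het clones (log2 fold change 2.12, adjusted p = 0.0204, edgeR). Dld, which encodes the shared dehydrogenase subunit, rose with a log2 fold change of 0.44 (adjusted p = 0.0304, edgeR), close to its local median of 0.42. The abundant subunit genes Pdha1 and Dlat did not pass (adjusted p = 0.209 and 0.454). The list moved in both directions, and the count of 4 depended on the clones: 1 passed without knockout clone 1 or 2, and 2 without knockout clone 3 or het clone 2 or 3. Pdk4 missed the threshold without knockout clone 1 or 2 or het clone 3 (adjusted p = 0.0742, 0.0636 and 0.0634, edgeR). Dld missed it without any clone but het clone 1 (adjusted p 0.0611 to 0.0984, edgeR).

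Of 10 tested genes among 11 other HIF regulators, 2 rose and 1 fell (median -0.01). Hif1an, the asparaginyl hydroxylase that blocks HIF activity, had a log2 fold change of 0.43 (adjusted p = 0.0215, edgeR) with a local median of 0.5. Tceb2, elongin B of the VHL ligase, had one of 0.6 (adjusted p = 0.035), and Egln2, the prolyl hydroxylase PHD1, one of -0.42 (adjusted p = 0.0354). Arnt, the HIF partner subunit, and Rbx1, a ligase subunit, did not pass (adjusted p = 0.474 and 0.842). Whichever clone was left out, at most 2 passed, and Hif1an stood at -0.06 with its local median taken out.

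Of 37 tested genes among 40 further hypoxia-induced genes, 6 rose and 10 fell (median -0.01). The 3 with the smallest adjusted p were nearly absent from the knockout clones. Car12, a membrane carbonic anhydrase, had 0.122, 0.184 and 0.207 CPM in knockout clones, against 30.2, 41.5 and 25.5 CPM in het clones (log2 fold change -7.49, SE 0.32, adjusted p = 4.01e-05, edgeR). Adm, which encodes the vasodilator adrenomedullin, had 0.0611, 0.184 and 0.155 CPM in knockout clones, against 15.8, 6.02 and 8.65 CPM in het clones (log2 fold change -6.16, adjusted p = 0.000971, edgeR). Stc2, a secreted stanniocalcin, had 0 counts in all knockout clones, against 12.7 ± 3.45 CPM in het clones. That is at least 220-fold lower, with 3 counts over the group as the floor (adjusted p = 0.00104, edgeR). The abundant gene Tfrc, which encodes the transferrin receptor, did not pass (adjusted p = 0.601). The number passing was 10, against 16, without knockout clone 2, and between 12 and 18 without any other clone. Over all tested genes, 11.8% passed without knockout clone 2, against 28.1% with all clones.

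In the pentose phosphate pathway, which branches from glucose 6-phosphate, 1 of 8 genes fell and the others did not pass (median -0.13). It was G6pdx, the entry enzyme, at 166 ± 15.1 CPM in knockout and 255 ± 31.1 CPM in het clones (log2 fold change -0.62, adjusted p = 0.0131, edgeR), while Pgd and Tkt did not pass (adjusted p = 0.124 and 0.285). G6pdx missed the threshold without knockout clone 2 (adjusted p = 0.0623). Of 14 tested genes among 23 listed as other glycolytic isozymes and transporters, 2 fell and the others did not pass (median -0.27). They were the muscle-type isozyme genes Pgam2 (log2 fold change -1.21, adjusted p = 0.0299) and Eno3 (-0.63, adjusted p = 0.0467, edgeR). Bsg, the chaperone of the lactate transporters, and Pgam5 did not pass (adjusted p = 0.0662 and 0.437, edgeR). Pgam5 was listed by its symbol, and a part of it in glycolysis was not shown. Pgam2 passed when het clone 1 was left out and missed the threshold when any other clone was, Eno3 missed it whichever clone was left out, and Bsg passed without knockout clone 3 (0.62, adjusted p = 0.0291). Of 7 gluconeogenesis genes 3 were tested, and 2 of these fell (median -0.89). Pck2, the mitochondrial phosphoenolpyruvate carboxykinase, fell to 17.4, 23.4 and 34.3 CPM in knockout clones, against 135, 89.3 and 111 CPM in het clones (log2 fold change -2.16, adjusted p = 0.00309, edgeR). Pcx, pyruvate carboxylase, had a log2 fold change of -0.89 (adjusted p = 0.0458), and G6pc3 did not pass (adjusted p = 0.259). Pcx missed the threshold without any clone but knockout clone 3 (adjusted p 0.0501 to 0.144), whereas Pck2 passed in each case.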

How the data were processed

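Poly(A) RNA libraries of 6 clones were compared, 3 knockout and 3 het. The submitters' processing notes name kallisto 0.42.5, Trimmomatic 0.36, an edgeR release without a version and build GRCm38.p4. The authors deposited, per transcript, estimated counts for 96626 transcripts (48.2% of values not whole), FPKM for 24799 transcripts, and a comparison with a log2 fold change and p-values per transcript, per the file headers. The 34 genes and all lists were chosen with earlier results of these data known.

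Estimated counts were summed per gene with GENCODE M21 (GRCm38), or the deposited table for 260 transcripts; 1153 transcripts without a match (at most 0.0278% of counts) were left out. Sums were rounded. Genes passing filterByExpr (at least 10 counts, 15 in total) were TMM-scaled and tested two-sided with edgeR 4.0.16 (robust quasi-likelihood, R 4.3.3), with Benjamini-Hochberg adjustment. SEs come from the F statistic. Near-identical copies were found with minimap2 2.31 (identity at least 95% over at least 80% of a copy of at least 200 bases). Of each further list, the 3 passing genes with the smallest adjusted p and the 2 most abundant others were named, except 1 gene that is not reported here. Intervals and floors (3 counts, 0.155 to 0.188 CPM per library) cover counting error only. DESeq2 1.42.0, limma 3.58.1, other scalings and filters, and each clone left out were alternatives. Tested on simulated counts (12555 genes), knockout against het, the procedure recovered 4.2% of 1.5-fold, 38% of 2-fold and 87.5% of 4-fold changes. It made 11 false calls, and small differences can go uncalled. Only 200 genes were changed in the simulation, whereas 28.1% of tested genes passed in the real comparison. The adjusted threshold was therefore stricter in the simulation, and recovery in the real comparison was not measured.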

Additional observations from a re-analysis of the deposited data

How the results depend on the processing

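With all clones, 12 of the 34 genes passed, and between 9 and 12 passed with DESeq2, limma-voom, another scaling or filter, both FPKM scales, the local median taken out or copies added. The share over all genes under these settings ran from 16.5% (no filter on low counts) to 34.2% (DESeq2), against 28.1% in the main fit. Leaving out each clone in turn gave 5 to 13 passing genes, 1 to 7 higher and 4 to 8 lower, and 1 to 12 passing transcripts. Over all genes, 11.8% to 29.1% passed in the gene fits without a clone. The share over all transcripts without a clone is not given here. On log2(FPKM + 1) and log2(FPKM + 0.1), which list 29 of the 34 genes, 5 and 5 genes passed as lower, and on the first scale 18 transcripts passed. On these scales 30.1% and 29.5% of all genes passed in either direction. The share over all transcripts on the first scale is not given here. Of the 12 genes, 7 lost the call in at least 1 alternative, and 7 of the other 22 gained one. Slc2a3 also missed the threshold with no filter on low counts (adjusted p = 0.0505) and with the local median taken out (0.0511), where Pfkfb3 passed as lower (-0.49, adjusted p = 0.0375). In the further lists, without single clones, 1 to 4 genes of pyruvate entry passed, 0 to 2 HIF regulators, 10 to 18 hypoxia-induced genes, 0 to 2 of the pentose phosphate pathway, 0 to 2 other isozymes and 1 to 2 of gluconeogenesis. With local medians taken out the counts were 2 for pyruvate entry, 0 for HIF regulators, 2 for the pentose phosphate pathway and 0 for other isozymes. In that setting 21.5% of all genes passed. Other isozymes had 4 with DESeq2 and 0 without a filter, and gluconeogenesis had 1 with library totals and 1 without a filter. Of all genes, 34.2% passed with DESeq2, 25.8% with library totals and 16.5% without a filter.

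Sign changes were seen for 9 of the 34 genes. Of their transcripts and of the further lists, only some transcripts and genes were followed across the alternatives. Among those followed, 2 transcripts and Hif1an, Rbx1 and Tfrc changed sign, and the rest were not counted. Of all that changed sign, Hif1an alone had passed. On FPKM, Pfkfb4 turned to 0.47 and 0.63 (pseudocounts 1 and 0.1) and Eno1 to 0.02 and 0.02. With the local median taken out, Tpi1 turned to 0.05, Gapdh to 0.24, Ldha to 0.19, Pdk3 to -0.06, Hif1an to -0.06 and Rbx1 to -0.06. With copies added Eno1 was at 0.41. With single clones left out the ranges of log2 fold change were Slc2a1 -0.38 to 0.03, Pfkfb4 -0.23 to 0.12, Gapdh -0.13 to 0.08, Eno1 -0.5 to 0.11, Ldha -0.23 to 0.17, Pdk3 -0.01 to 0.18, Egln1 -0.04 to 0.3, Vegfa -0.42 to 0.21, Rbx1 -0.05 to 0.17, Tfrc -0.04 to 0.54, Eno1-202 -0.61 to 0 and Pkm-202 -0.28 to 0.01. For those changes the alternative holds fewer samples; the cause of the others was not tested. No paired analysis was possible because the replicate numbers follow accession order and pair nothing. Depth limits Slc2a3, Aldoc, Epas1, Car9, Ankrd37 and, in knockout clones, Egln3, Slc16a3 and Ldhb, whose levels rest on few counts.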
